A study of Homo sapiens with 6 samples.

Results

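A set of 10 feedback genes of the ERK pathway was followed across naive and primed human embryonic stem cells: the phosphatase genes DUSP4, DUSP5 and DUSP6, the Sprouty genes SPRY1, SPRY2 and SPRY4, the Sprouty-related genes SPRED1 and SPRED2, and the transcription factor genes ETV4 and ETV5. They were selected by symbol as genes known to depend on ERK, and all 10 were found in the table of 63677 genes, each on 1 row. All 10 passed the low-count filter that left 19434 genes for testing. RNA came from a pair of embryonic stem cell lines, RH6 (Royan H6) and RH5 (Royan H5). The groups were naive RH6 at passage 10 and naive RH5 at passage 17, with 2 libraries each, and primed RH6 at passage 20 and primed RH5 at passage 16, with 1 library each. Naive cells had been converted with a condition labelled 2a2iL and were then carried in 2iL medium, primed cells were grown with bFGF, and all 4 groups sat on inactivated mouse feeder fibroblasts. Medium and state therefore cannot be told apart. Naive cells were at a lower passage than primed cells in RH6 and at a higher passage, by 1, in RH5. The labels do not say that the naive duplicates were separate cultures, so the spread between them may be technical. P-values by line, between lines and between naive groups measure that spread. The test over both lines counts the duplicates as separate libraries and rests on this pair of lines. Its spread also takes in how far the state effect differed between the lines.

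ERK is the last kinase of a relay in which growth factor receptors such as those for FGF switch on RAS, then RAF, then MEK. Active ERK turns on genes whose products restrain the same relay, so the transcripts of these feedback genes are widely used as a readout of ERK activity. DUSP proteins remove the activating phosphates from MAP kinases, Sprouty proteins block signalling between the receptor and RAF, SPRED proteins bring neurofibromin to RAS, and ETV4 and ETV5 are ETS-family factors of the PEA3 group that act as transcriptional effectors of FGF signalling. In stem cell culture, the name 2i usually stands for an inhibitor of MEK and an inhibitor of GSK3, and L for the cytokine LIF; the labels name neither inhibitor.

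Promoter windows of RefSeq (build GRCh38.p14, 250 bases before to 50 bases after a start) were present for 6 of the 10 genes, in 10 windows. DUSP4, DUSP5, ETV4 and ETV5 had none there. The windows shown are those of DUSP6 and SPRY1, which were lower in naive cells, and of SPRY2 and SPRED2, which were higher, so that promoters of genes moving in opposite directions can be compared. SPRY1, SPRY2 and SPRED2 have more than 1 annotated start. The first window of SPRY1 and SPRY2 is shown, and for SPRED2 the window that held a searched motif. Each reads 5′ to 3′ on the gene's strand, and capitals mark the ETS core GGAA on either strand and, in SPRED2, TGANTCA.
DUSP6 (chr12:89352452-89352751, minus strand): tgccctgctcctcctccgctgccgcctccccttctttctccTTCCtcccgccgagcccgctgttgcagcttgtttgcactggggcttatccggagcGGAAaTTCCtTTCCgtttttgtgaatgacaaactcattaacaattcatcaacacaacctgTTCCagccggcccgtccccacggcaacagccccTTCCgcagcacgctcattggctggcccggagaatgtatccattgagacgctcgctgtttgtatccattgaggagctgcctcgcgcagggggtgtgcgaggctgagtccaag
SPRY1 (chr4:123396545-123396844, plus strand): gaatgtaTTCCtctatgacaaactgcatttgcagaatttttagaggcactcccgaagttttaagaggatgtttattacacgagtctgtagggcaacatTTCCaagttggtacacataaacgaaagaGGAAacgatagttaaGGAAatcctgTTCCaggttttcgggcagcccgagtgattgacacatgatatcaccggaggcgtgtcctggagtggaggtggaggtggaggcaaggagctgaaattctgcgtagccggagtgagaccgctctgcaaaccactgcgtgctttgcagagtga
SPRY2 (chr13:80341077-80341376, minus strand): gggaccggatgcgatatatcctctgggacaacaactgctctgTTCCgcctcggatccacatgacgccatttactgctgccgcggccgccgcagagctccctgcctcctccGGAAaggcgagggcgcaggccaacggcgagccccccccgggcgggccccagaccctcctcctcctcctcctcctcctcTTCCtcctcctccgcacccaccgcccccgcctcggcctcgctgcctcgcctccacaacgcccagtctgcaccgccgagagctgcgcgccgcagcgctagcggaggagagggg
SPRED2 (chr2:65366729-65367028, minus strand): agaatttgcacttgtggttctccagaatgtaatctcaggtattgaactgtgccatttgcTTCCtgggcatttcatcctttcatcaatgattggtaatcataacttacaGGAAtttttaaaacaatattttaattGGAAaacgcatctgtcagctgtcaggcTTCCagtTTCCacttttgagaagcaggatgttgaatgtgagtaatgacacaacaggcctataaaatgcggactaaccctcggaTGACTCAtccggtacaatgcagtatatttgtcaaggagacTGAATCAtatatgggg

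The 2 octamers known to bind the repressor CIC, TGAATGAA and TGAATGGA, were in none of the 10 windows, nor was the longer ETS site CCGGAAGT, searched on both strands. Over all 35116 windows, these were found in 1.65%, 1.03% and 4.14%. The AP-1 motif TGANTCA, present in 7.71% of all windows, was found only in the SPRED2 window shown, as TGACTCA starting 6 bases upstream of the start and as TGAATCA 34 bases downstream. The short core GGAA lies inside CCGGAAGT and occurred in 95.5% of all windows, with a median of 3 per window. In the windows shown it was found 6 times for DUSP6, 5 times for SPRY1, 3 times for SPRY2 and 5 times for SPRED2. The windows of these genes that are not shown held 4 for SPRY1, 4 and 5 for SPRY2 and 6 for SPRED2. The counts per gene thus depend on the window chosen. GGAA was added to the search after the other motifs had matched 1 window only. These matches describe the letters of the windows only.

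The libraries held 13457979 to 14663982 counts, of which DUSP6 had 152 to 475 and SPRY4 1752 to 3512. The marker counts below stand beside 25.7% of all genes called over both lines, 33.6% in RH6 and 33.5% in RH5. Of 7 general markers of pluripotency none was called higher and 3 were called lower in naive cells, namely SOX2 (log2 fold change -1.33, adjusted p = 0.0012), SALL4 (-0.75, adjusted p = 0.00979) and DPPA4 (-0.66, adjusted p = 0.0314), with 4 called lower in RH5 and 2 higher and 2 lower in RH6. POU5F1, not called, was at 342.1 to 503.4 CPM (counts scaled to a common library total after TMM normalization) in naive libraries and at 309.5 and 386.7 CPM in primed libraries. Of 9 tested naive markers 7 were called higher in naive cells. TFCP2L1 (log2 fold change -0.09, adjusted p = 0.803) and KLF4 (-0.23, adjusted p = 0.358) were not called. KLF17 was low, at 0 and 0.147 CPM in naive RH6, 0.917 and 1.34 CPM in naive RH5 and 0 in both primed libraries. In RH6 alone KLF17 was not called (adjusted p = 0.397). DPPA5 was at 0 in all but primed RH5, and all 6 tested primed markers were called lower. Some markers of other cell types also differed by state. Of 11 tested fibroblast markers 7 were called higher and 2 lower in naive cells, and the summed level of the 12 listed was 1380 and 1170 CPM in naive RH6, 703 and 722 in naive RH5, 342 in primed RH6 and 329 in primed RH5. Of 8 mesendoderm markers 2 were called higher over both lines (25%, near the share of all genes), with all 8 higher in RH6, and 4 higher and 3 lower in RH5. Summed, they were at 187 to 304 CPM in naive libraries and at 10.1 and 72.6 CPM in primed libraries. Of 7 tested trophectoderm markers 4 were called higher and 1 lower. The listed trophectoderm markers summed to 481 to 587 CPM in naive libraries and 139 and 186 in primed libraries, most of it KRT18. Of 8 neural markers 6 were called lower (568 to 1080 CPM summed in naive and 597 to 1020 in primed libraries, most of it NES). NES (log2 fold change 0.67, adjusted p = 0.0712) and SOX1 (-2.99, adjusted p = 0.113) were not called. SOX21 was at 373 CPM in primed RH6, 102.4 CPM in primed RH5 and 3.16 to 17.5 CPM in naive libraries. PAX6 and SIX3 were also higher in primed RH6 (36.7 and 43.8 CPM) than in primed RH5 (12.1 and 12.5 CPM). No marker of these 4 lists was at 0 throughout the naive or the primed libraries. The part of such cells in the results on the feedback genes was not tested, and in bulk RNA fewer cells of a type and less RNA per cell cannot be told apart.

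The main comparison asked how the feedback genes differed between naive and primed cells over both lines. The family split: ETV5, SPRY2, DUSP5, SPRED2 and ETV4 were higher in naive cells, SPRY1, DUSP6 and DUSP4 were lower, and SPRY4 and SPRED1 were not called. Thus 8 of 10 genes passed edgeR's quasi-likelihood test at an adjusted p under 0.05, where 25.7% of all genes tested did (12.1% higher and 13.6% lower). Their median log2 fold change, naive over primed, was 0.45, against -0.007 over all genes tested. In 7 of the 10, all 4 naive libraries lay outside both primed libraries, 4 above and 3 below, where 44.3% of all genes did so (21.5% above and 22.8% below). The count of 8 fell to 5 without naive RH5 replicate 1 and to 5 without the line term, and to 2 (SPRY2 and ETV5) when each line's naive libraries were summed.

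**Figure D1:**
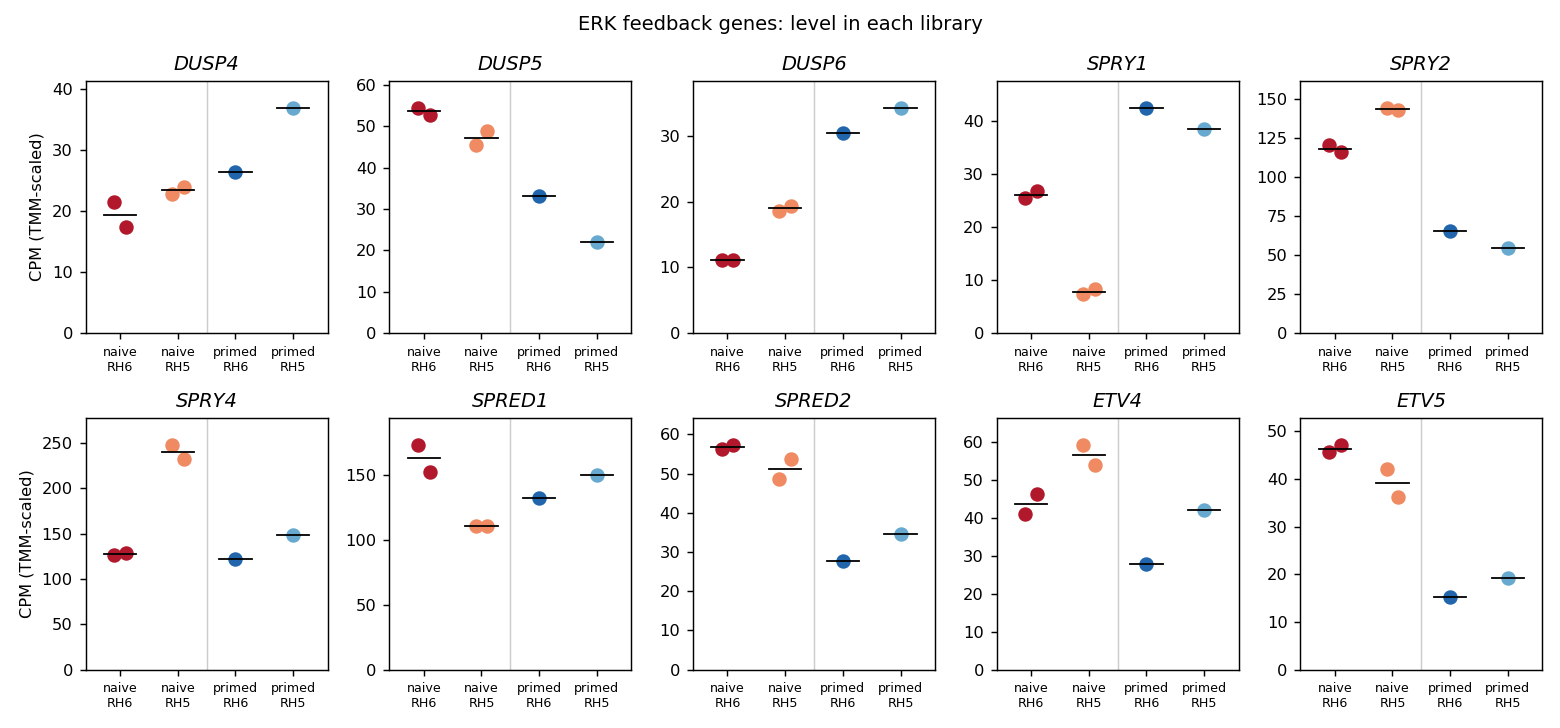
Level of each ERK feedback gene in the 6 libraries, in TMM-scaled CPM on linear axes that start at 0. Points are libraries and black lines group means; DUSP6 stood at 11.2 to 19.4 CPM in naive libraries and 30.4 and 34.3 CPM in primed libraries, while SPRY2 stood at 116.2 to 144.4 CPM in naive libraries and at 65.6 and 54.7 CPM in primed libraries.

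Among the 3 phosphatase genes of the feedback set, DUSP6 (ENSG00000139318, chromosome 12), which acts on ERK in the cytoplasm, had the largest change. It was at 11.2 CPM in each of the naive RH6 libraries and at 18.6 and 19.4 CPM in naive RH5, against 30.4 CPM in primed RH6 and 34.3 CPM in primed RH5. Every naive library lay below both primed libraries, and the naive RH6 pair lay below the naive RH5 pair. The log2 fold change was -1.15 ± 0.16 (SE, adjusted p = 0.00307), which is 2.23-fold lower in naive cells. Its exons overlap those of the antisense gene AC024909.2 in GENCODE 29, and the strand setting of the counting is not known here.

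DUSP4 (ENSG00000120875, chromosome 8), a nuclear phosphatase of ERK and related kinases, was at 21.5 and 17.3 CPM in naive RH6 and 22.9 and 24.0 CPM in naive RH5, against 26.4 CPM in primed RH6 and 36.9 CPM in primed RH5. The naive libraries were again all lower, but the gap to primed RH6 was small. Its log2 fold change of -0.55 ± 0.14 was called (adjusted p = 0.0274). It no longer passed without naive RH6 replicate 2 (adjusted p = 0.0846), naive RH5 replicate 1 (0.0904), naive RH5 replicate 2 (0.0703) or primed RH5 (0.0696).

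DUSP5 (ENSG00000138166, chromosome 10), a nuclear phosphatase selective for ERK, went the other way. It was at 54.4 and 52.8 CPM in naive RH6 and 45.4 and 48.9 CPM in naive RH5, against 33.2 CPM in primed RH6 and 22.0 CPM in primed RH5. The groups did not overlap, and the log2 fold change was 0.89 ± 0.13 (adjusted p = 0.00422). Related pseudogenes took few reads: DUSP5P1 had 9 counts over the 6 libraries and DUSP5P2 had 0, beside 3598 for DUSP5.

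The Sprouty genes, whose products dampen receptor tyrosine kinase signalling upstream of RAF, did not move as a group. SPRY2 (ENSG00000136158, chromosome 13) was at 120.5 and 116.2 CPM in naive RH6 and 144.4 and 143.2 CPM in naive RH5, against 65.6 CPM in primed RH6 and 54.7 CPM in primed RH5. All naive libraries were above both primed libraries, by a log2 fold change of 1.11 ± 0.14 (adjusted p = 0.0023), or 2.16-fold. The call was kept under all 13 alternatives tried.

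SPRY1 (ENSG00000164056, chromosome 4) was lower in naive cells, and by very different amounts in the 2 lines. It was at 25.5 and 26.8 CPM in naive RH6 and at 7.34 and 8.27 CPM in naive RH5, against 42.5 CPM in primed RH6 and 38.6 CPM in primed RH5. The primed libraries were close to each other, and the naive RH5 libraries stood apart from all others at the low end. The log2 fold change over both lines was -1.54 ± 0.32 (adjusted p = 0.0143), with the largest standard error of the 10 genes. The estimate was -2.30 without primed RH6 and -0.67 without primed RH5, each being the effect in the other line, and it missed the threshold when naive RH5 replicate 1 (adjusted p = 0.0524) or 2 (0.0519) was left out.

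SPRY4 (ENSG00000187678, chromosome 5) was at 126.5 and 128.6 CPM in naive RH6 and at 247.8 and 232.4 CPM in naive RH5, against 122.1 CPM in primed RH6 and 148.6 CPM in primed RH5. Only the naive RH5 libraries lay above both primed libraries. Over both lines its log2 fold change, 0.37 ± 0.15, missed the threshold (adjusted p = 0.125); it was 0.70 and called without primed RH6, and 0.09 without primed RH5.

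SPRED proteins share the Sprouty domain and bind neurofibromin, the RAS-GAP encoded by NF1. SPRED2 (ENSG00000198369, chromosome 2) was at 56.4 and 57.4 CPM in naive RH6 and 48.5 and 53.7 CPM in naive RH5, against 27.8 CPM in primed RH6 and 34.7 CPM in primed RH5. The groups were well separated, by 0.79 ± 0.14 on the log2 scale (adjusted p = 0.0083).

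SPRED1 (ENSG00000166068, chromosome 15), the gene mutated in Legius syndrome, was at 173.6 and 152.8 CPM in naive RH6 and 110.8 and 111.0 CPM in naive RH5, against 132.6 CPM in primed RH6 and 150.4 CPM in primed RH5. The naive lines lay on opposite sides of the primed libraries, and the log2 fold change, -0.08 ± 0.17, missed the threshold (adjusted p = 0.757). The value was 0.33 without primed RH5, which leaves the RH6 effect alone, and -0.43 and called without primed RH6 (adjusted p = 0.0154).

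The PEA3-group factors were both higher in naive cells. ETV5 (ENSG00000244405, chromosome 3) was at 45.5 and 47.1 CPM in naive RH6 and 42.0 and 36.1 CPM in naive RH5, against 15.2 CPM in primed RH6 and 19.2 CPM in primed RH5. Every naive library was above both primed libraries, and the log2 fold change of 1.31 ± 0.17 (adjusted p = 0.0024), or 2.47-fold, was the largest rise among the 10 genes. It was called under all 13 alternatives tried. In the GENCODE 29 annotation its exons overlap those of DGKG on the same strand, and DGKG had 58 counts over the 6 libraries beside 2866 for ETV5.

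ETV4 (ENSG00000175832, chromosome 17) was at 41.1 and 46.3 CPM in naive RH6 and 59.3 and 54.0 CPM in naive RH5, against 27.8 CPM in primed RH6 and 42.1 CPM in primed RH5. One naive RH6 library lay just below primed RH5, so the states overlapped, although within each line the naive libraries were higher. The log2 fold change was 0.54 ± 0.12 (adjusted p = 0.0193), which did not pass without naive RH6 replicate 2 (adjusted p = 0.0596) or naive RH5 replicate 1 (0.0779). ETV4 exons overlap those of DHX8 on the opposite strand in GENCODE 29, and DHX8, which had 5347 counts, was itself not called (log2 fold change 0.08 ± 0.11, adjusted p = 0.642). The strand setting of the counting is not given in the sources used here, so the ETV4 values are uncertain to that extent.

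Compared per kilobase of merged exon (lengths from GENCODE 29, since the files give no length and the annotation used for counting is not known here), the order of the 10 levels differed between the states. In naive cells SPRY2 led at 43.2 ± 4.87 CPM per kilobase (SD, n = 4, both lines together), followed by the means of SPRY4, DUSP5, SPRED1, ETV4, SPRED2, ETV5, SPRY1, DUSP6 and DUSP4, the last at 2.95 ± 0.401. This order pools lines that differ: in naive RH6 SPRY4 (19.3 and 19.6) lay below DUSP5 (20.8 and 20.2), and DUSP6 (2.42 and 2.41) and DUSP4 (2.96 and 2.39) overlapped at the low end, whereas in naive RH5 SPRY4 (37.7 and 35.4) was second to SPRY2 and SPRY1 (1.85 and 2.09) was the lowest. Neighbours in the pooled order were apart by mean ± SD for SPRY2 and SPRY4, ETV4 and SPRED2, and SPRED2 and ETV5, and overlapped for the other 6 pairs. In primed cells SPRY4 (mean of 20.6 CPM per kilobase) and SPRY2 (19.8) led and ETV5 (2.96) was last, where DUSP4 stood at 4.36. This order of the leaders also pools the lines. In primed RH6 SPRY2 (21.6) lay above SPRY4 (18.6). In primed RH5 SPRY4 (22.6) led, and SPRED1 (18.2) lay just above SPRY2 (18). With 1 primed library per line, the primed order has no replicate check.

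The next comparisons asked for the state effect in each line. In RH6, 5 genes were called higher and 2 lower in naive cells, where 33.6% of all genes were called (16.4% higher and 17.2% lower), and the median log2 fold change of the 10 was 0.48. ETV5 rose by 1.61 ± 0.16 and SPRED2 by 1.03 ± 0.14, SPRY2 by 0.85 ± 0.12, DUSP5 by 0.69 ± 0.13 and ETV4 by 0.65 ± 0.14 on the log2 scale. DUSP6 had -1.45 ± 0.15 (adjusted p = 3.98e-05) and SPRY1 -0.70 ± 0.14 (adjusted p = 0.00318), while DUSP4 at -0.45 ± 0.16 (adjusted p = 0.0587), SPRED1 at 0.30 ± 0.12 (0.0844) and SPRY4 at 0.06 ± 0.11 (0.714; -0.04 with upper-quartile factors) were not called. The DUSP4 value was called with upper-quartile factors (adjusted p = 0.0268) and without naive RH6 replicate 1 (0.009), naive RH5 replicate 1 (0.0323) or naive RH5 replicate 2 (0.0294). SPRED1 was called without naive RH6 replicate 2 (0.0237).

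In RH5 all 10 genes were called, 6 higher and 4 lower, where 33.5% of all genes were (16.5% higher and 17% lower), with a median log2 fold change of 0.49. SPRY1 had the largest change, -2.31 ± 0.15 (adjusted p = 2.49e-06), or 4.94-fold lower in naive RH5. SPRY2 rose by 1.39 ± 0.12, DUSP5 by 1.10 ± 0.14, ETV5 by 1.02 ± 0.15, SPRY4 by 0.69 ± 0.11, SPRED2 by 0.56 ± 0.13 and ETV4 by 0.43 ± 0.14. DUSP6 had -0.85 ± 0.14, DUSP4 -0.66 ± 0.16 and SPRED1 -0.44 ± 0.12. The ETV4 call (adjusted p = 0.0367) was lost with DESeq2 (0.137), with upper-quartile factors (0.068) and without naive RH5 replicate 1 (0.132), and the DUSP4 call (0.00931) with DESeq2 (0.0524). In both lines the spread came from the naive duplicates, and the single primed library is taken to vary as much as those do.

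**Figure D2:**
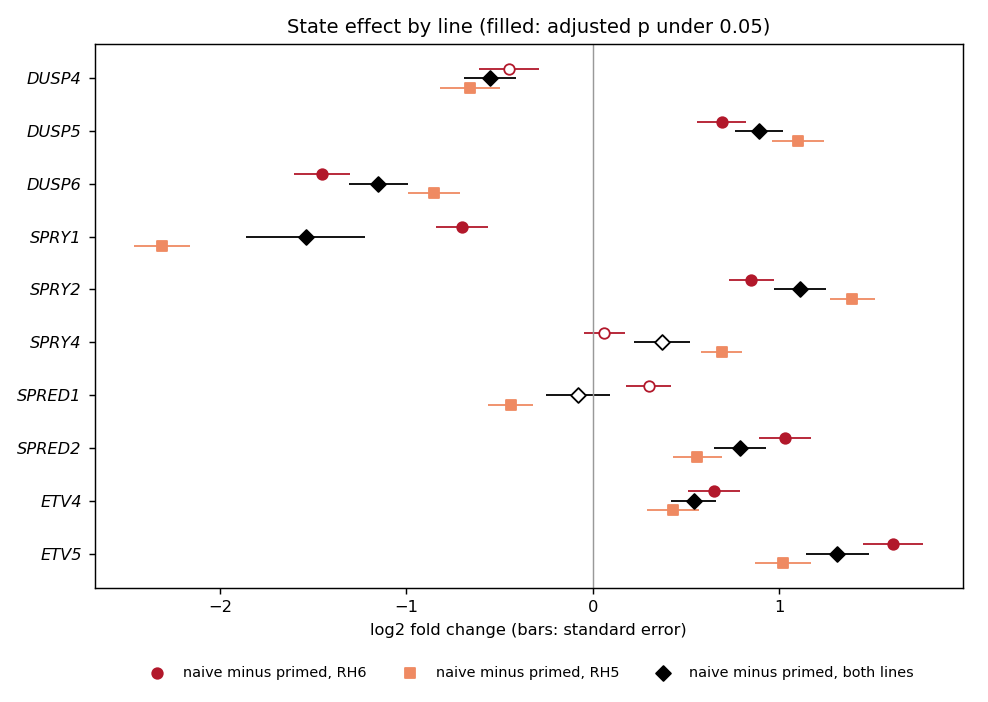
Log2 fold change of naive over primed cells for each gene, in RH6 (circles), RH5 (squares) and over both lines (diamonds), with standard errors as bars; filled symbols have an adjusted p under 0.05 in edgeR's quasi-likelihood test. SPRY1 lies at -0.70 in RH6 and -2.31 in RH5, and SPRED1 lies at 0.30 in RH6 and -0.44 in RH5.

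The state effect itself was compared between the lines. For 3 of the 10 genes the difference, RH6 effect minus RH5 effect, was called, 2 positive and 1 negative, where 12% of all genes were (5.86% positive and 6.16% negative). SPRY1 differed by 1.60 ± 0.21 on the log2 scale (adjusted p = 9.83e-04), being less reduced in RH6. SPRED1 differed by 0.74 ± 0.17 (adjusted p = 0.0195), and SPRY4 by -0.63 ± 0.16 (adjusted p = 0.0289), with the rise in RH5. The SPRY4 difference was not called with DESeq2 (adjusted p = 0.0519) or without naive RH5 replicate 1 (0.0548). SPRY2, at -0.54 ± 0.16, missed the threshold (adjusted p = 0.0549), and was called with upper-quartile factors (0.0437) and without naive RH6 replicate 1 (0.0282). The remaining 6 genes had differences of -0.59 to 0.58 that were not called, DUSP6 among them at -0.59 ± 0.21 (adjusted p = 0.0965). Markers of other cell types also differed between the lines in the same contrast: 7 of 8 mesendoderm markers were called, all positive, as were 3 of 11 fibroblast markers, all positive, 3 of 8 neural markers, all negative, and 4 of 7 trophectoderm markers, 2 in each direction. Their part in the SPRY1, SPRED1 and SPRY4 differences was not tested.

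Naive RH6 and naive RH5 were also compared directly. Of the 10 genes 2 were called higher and 4 lower in naive RH6, where 25.5% of all genes were called (12% higher and 13.5% lower). SPRY1 was higher by 1.74 ± 0.13 (adjusted p = 1.38e-05), or 3.35-fold, and SPRED1 by 0.56 ± 0.10 (adjusted p = 0.00238). SPRY4 was lower in naive RH6, at -0.91 ± 0.09 (adjusted p = 7.45e-05), as were DUSP6 at -0.77 ± 0.13 (adjusted p = 0.0018), ETV4 at -0.38 ± 0.11 (0.0316) and SPRY2 at -0.28 ± 0.09 (0.0453). The SPRY2 call was lost when any 1 of the 4 naive libraries was left out (adjusted p = 0.0502 to 0.146), and both the SPRY2 and ETV4 calls were lost with DESeq2 (0.157 and 0.136). The ETV4 call was also lost without naive RH6 replicate 1 (0.107) or naive RH5 replicate 1 (0.137). DUSP4, DUSP5, SPRED2 and ETV5 had differences of -0.27 to 0.25 that were not called, but DUSP4 was called without naive RH6 replicate 1 (adjusted p = 0.0447). The passage number differs between these groups too, so passage and line cannot be told apart.

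**Figure D3:**
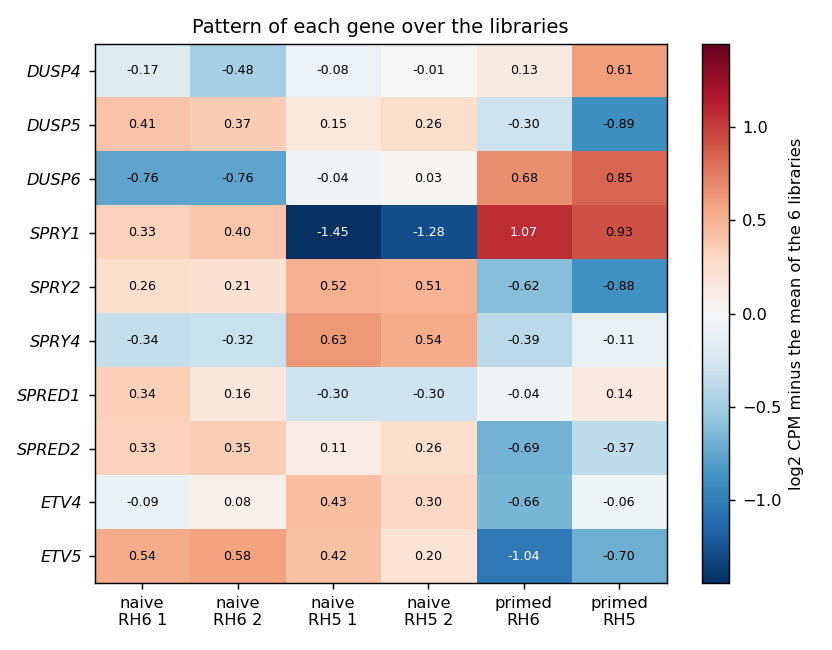
Log2 CPM of each gene in the 6 libraries, centred on the gene's own mean over the libraries, with naive libraries on the left. Red is above and blue below the mean; ETV5, SPRY2, DUSP5 and SPRED2 are red in all 4 naive columns and blue in both primed columns, whereas SPRY1 is at -1.45 and -1.28 in naive RH5 and at 0.33 and 0.40 in naive RH6.

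The pattern over libraries was compared by the root mean square difference of centred log2 CPM over the 6 libraries. Within the family the closest pairs were DUSP5 and SPRY2 (0.241), SPRY4 and ETV4 (0.253) and SPRED2 and ETV5 (0.267), and SPRY1 was the farthest from any other, at 0.834 from SPRED1. Among the other 19433 genes tested, those nearest to DUSP6 were ZNF425 (0.0633), ZBTB46 (0.0957) and PRELID2 (0.0997). Those nearest to SPRY2 were C12orf5 (0.0564), LRRC34 (0.0603) and PTPDC1 (0.0803), and those nearest to SPRED1 were MMACHC (0.0416), CLN6 (0.0458) and ATRIP (0.0498). ETV5 was closest to SLIT2 (0.0499), which encodes an axon guidance ligand, PEA15 (0.0789), whose product binds ERK, and PARVA (0.0794). With 6 libraries in 4 groups and this many genes, close matches are a description only.

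The rest of the pathway was described from fixed lists, set beside the same background of 25.7% called. Of the 26 genes of the RAS, RAF, MEK and ERK relay, 4 were called higher and 3 lower in naive cells, with a median log2 fold change of 0.15. This count of 7 was 3 without naive RH6 replicate 1, naive RH6 replicate 2 or naive RH5 replicate 1, 4 without naive RH5 replicate 2 and 11 (8 higher and 3 lower) without primed RH5. Kinase genes of the relay that were not called included MAP2K1 (MEK1) at 0.14 ± 0.16 (adjusted p = 0.55), MAP2K2 (MEK2) at 0.18 ± 0.10 (0.238) and MAPK3 (ERK1) at 0.20 ± 0.15 (0.379). Without primed RH6 the sign of MAP2K1 turned, to -0.13, and without primed RH5 it was 0.47 and called (adjusted p = 0.0199). The largest called changes were those of the scaffold gene KSR2 (-1.94 ± 0.23, adjusted p = 0.00156), PEA15 (1.29 ± 0.19, adjusted p = 0.0034) and CBL, a ubiquitin ligase for receptors (-0.53 ± 0.13, adjusted p = 0.0211). The CBL call was lost without naive RH6 replicate 2 (0.0749).

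Upstream, of 8 FGF ligand and receptor genes 2 were called higher and 3 lower, with a median of -0.03. The median was -0.37 in RH6 and 0.40 in RH5. FGF19 (-0.37 in RH6, 1.31 in RH5) and FGFR3 (-0.37 in RH6, 0.99 in RH5), named after their values were seen, had opposite signs. The other genes of the list had the same sign in both lines. The ligand gene FGF4 rose by 3.02 ± 0.47 (adjusted p = 0.00479), with 5.65 to 12.35 CPM in naive libraries against 1.27 and 0.578 CPM in primed libraries. FGF8, another ligand gene, rose by 2.68 ± 0.32 (adjusted p = 0.00163), and the receptor gene FGFR1 was lower, at -0.86 ± 0.13 (adjusted p = 0.00388).

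Of 7 other MAP kinase phosphatase genes 2 were called higher and 2 lower, with a median of -0.18. This count of 4 was 2 without naive RH6 replicate 1 or naive RH5 replicate 2, and 1 without naive RH6 replicate 2 or naive RH5 replicate 1. DUSP10, whose product acts mainly on p38 and JNK, rose by 2.26 ± 0.15 (adjusted p = 1.93e-04), with 29.8 to 34.4 CPM in naive libraries against 6.29 and 7.08 CPM in primed libraries. DUSP2 (-2.15 ± 0.57, adjusted p = 0.0333) and DUSP1 (0.69 ± 0.20, adjusted p = 0.0447), both nuclear phosphatases, were called. DUSP2 was low throughout, at 0.21 to 1.76 CPM in naive libraries and 4.28 and 3.32 CPM in primed libraries. The DUSP1 call was lost when any 1 of the 4 naive libraries was left out (adjusted p = 0.0632 to 0.124) and without primed RH5 (0.33, adjusted p = 0.13), where it was 1.11 without primed RH6. The DUSP2 call was lost in the same way without any 1 naive library (0.0606 to 0.123) and without primed RH6 (-0.95, adjusted p = 0.103), where it was -3.52 without primed RH5.

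Among 14 tested other ERK output genes 5 were called higher and 1 lower over both lines, with a median of 0.34, but the lines differed. In RH6 5 were called higher and 6 lower (median -0.20), where 33.6% of all genes were called. In RH5 9 were called higher and 1 lower (median 0.80), where 33.5% of all genes were called. The difference between lines was called for 8, of which 7 were negative, where 12% of all genes were called. The count of 6 over both lines was accordingly 11 (5 higher and 6 lower) without primed RH5 and 10 (9 higher and 1 lower) without primed RH6. The immediate early transcription factor genes EGR1 (-2.70 ± 0.12 in RH6, 0.44 ± 0.13 in RH5) and EGR3 (-2.0 ± 0.14 in RH6, 3.37 ± 0.15 in RH5), named after their values were seen, were called in opposite directions in the 2 lines. The immediate early gene IER3 rose by 2.34 ± 0.14 (adjusted p = 1.19e-04) and the ephrin receptor gene EPHA2 by 1.86 ± 0.12 (adjusted p = 1.61e-04), and the ephrin receptor gene EPHA4 was lower, at -1.39 ± 0.20 (adjusted p = 0.00323). SPRED3, the remaining SPRED gene, was in this list and was too low to test, at 0.140 to 0.587 CPM in naive and 0.803 and 0.506 CPM in primed libraries. Of 10 transcription factor genes whose products ERK regulates, 5 were called higher and 1 lower, with a median of 0.53. ETS2 rose by 1.28 ± 0.23 (adjusted p = 0.00807) and ETS1 by 1.15 ± 0.22 (adjusted p = 0.0106). ETV1, the third gene of the PEA3 group, was lower in naive cells, at -1.42 ± 0.20 (adjusted p = 0.00344), where ETV4 and ETV5 were higher. It was at 55.3 and 45.4 CPM in naive RH6 and 25.7 and 26.2 CPM in naive RH5, against 96.5 CPM in primed RH6 and 94.0 CPM in primed RH5. For EPHA4, ETS1, ETS2 and ETV1 the sign was the same in both lines but the size differed. EPHA4 was at -1.81 in RH6 and -0.91 in RH5, and ETS1 at 1.67 in RH6 and 0.68 in RH5. ETS2 was at 1.83 in RH6 and 0.80 in RH5, and ETV1 at -0.94 in RH6 and -1.86 in RH5. Leaving out a primed library left the effect in the other line alone.

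**Figure D4:**
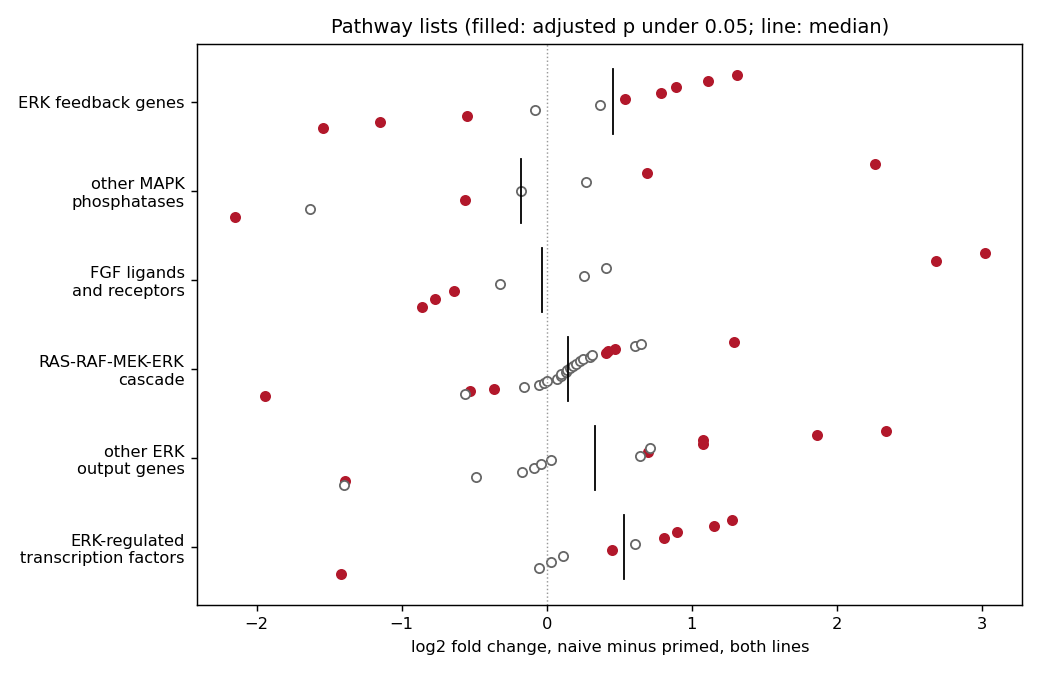
Log2 fold change of naive over primed cells, both lines, for each tested gene of the feedback family and of 5 pathway lists; each point is a gene, filled points have an adjusted p under 0.05 and vertical lines are list medians. The feedback genes run from -1.54 (SPRY1) to 1.31 (ETV5) with a median of 0.45, and 19 of the 26 relay genes are open points.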

How the data were processed

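RNA of 4 naive and 2 primed libraries was sequenced, per the labels' protocols, from a stranded total RNA kit with paired reads of 75 bases; the molecule field says polyA RNA. The authors deposited unnormalized whole-number counts per gene, and that table was the only file used. Tools listed in the submitters' processing notes, without their roles, are STAR 2.4.0a, FastQC, DESeq2 and featureCounts 1.4.5-p1 from Subread; GRCh37.p5 and hg19 are the builds listed. Which annotation and strand setting were used is not given in the sources used here. Deposited counts were tested with edgeR 4.0.16 (R 4.3.3, TMM factors 0.9644 to 1.029, quasi-likelihood F-test, two-sided) after filterByExpr by state (minimum count 10, minimum total 15). Naive against primed had a line term (3 residual degrees of freedom); contrasts by line, between lines and between naive groups came from a fit with 1 mean per group (2 residual degrees of freedom). P-values were adjusted by Benjamini-Hochberg over all 19434 genes tested, with calls at 0.05. Standard errors are the fold change over the square root of F. CPM used TMM-scaled totals, and patterns were taken from log2 CPM (prior count 2).

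The duplicates of naive RH6 differed by a chi-square of 9.22 per gene and those of naive RH5 by 5.76, above counting noise of about 1, so all libraries were kept. Symbols on several rows were read from the row with the highest total. The code of the fits was checked on simulated counts with the same spread for every gene. For the state effects these held no difference between lines, so they cannot show how reliable the calls on the real libraries are. Alternatives were RLE and upper-quartile factors, DESeq2 1.42.0, limma-voom (limma 3.58.1), no filter, leaving out each library, no line term, summed naive libraries, a replicate block and CPM on raw totals. Named pathway genes were the 3 largest called changes of each list, plus a few kinase genes whatever their result, of which MAP2K1, MAP2K2 and MAPK3 are given and the rest is not reported here. Genes and lists were chosen with earlier results of these data known. All 6 columns of the table mapped to samples, and no row lacked a gene.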

Additional observations from a re-analysis of the deposited data

Results flagged for a closer look

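For 3 feedback genes the state effect differed between the lines by the test of the difference itself (edgeR, adjusted over all genes). SPRY1 differed by 1.60 (RH6 effect minus RH5 effect, log2), with -0.70 in RH6 and -2.31 in RH5. SPRY4 differed by -0.63, with 0.06 in RH6 and 0.69 in RH5. SPRED1 differed by 0.74, with 0.30 in RH6 and -0.44 in RH5. Passage number differed between the lines in both states, and its part was not tested.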

How the results depend on the processing

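Over both lines, 4996 genes were called, 2961 to 6704 with a library left out and 1127 with the naive libraries summed; of the 10 feedback genes 8 were called, 5 to 10 with a library left out, 5 without the line term and 2 with summed libraries, where 1 residual degree of freedom is left. The calls of DUSP4, SPRY1 and ETV4 were lost without the line term (adjusted p = 0.0853, 0.145 and 0.145). With summed libraries they were lost too (0.228, 0.115 and 0.179), as were those of DUSP5 (0.0765), DUSP6 (0.069) and SPRED2 (0.102), and of the pathway genes named those of FGFR1 (0.074), CBL (0.156), EPHA4 (0.0501), ETV1 (0.0508), ETS2 (0.0622), ETS1 (0.0768), DUSP1 (0.214) and DUSP2 (0.165). Summed libraries left 2 of the 7 calls among relay genes, 2 of 5 among FGF ligands and receptors, 1 of 4 among other phosphatases and 0 of 6 by edgeR among ERK-regulated transcription factors (6 at an unadjusted p under 0.05), where all other alternatives gave 5 to 8 calls for the transcription factors; without the line term 2 other phosphatases were called. DESeq2 called 4036 genes in RH6, 3936 in RH5, 1305 for the difference between lines and 2856 between the naive groups, against 6528, 6506, 2337 and 4952 by edgeR; the cause was not tested. Signs turned for SPRY4 in RH6 with upper-quartile factors (-0.04; the median of all genes was then -0.106), SPRED1 without primed RH5 (0.33, against -0.43 without primed RH6) and MAP2K1 without primed RH6 (-0.13, against 0.47 without primed RH5). The naive libraries share replicate numbers 1 and 2, with a correlation across genes of 0.14 between their differences, which with 2 pairs does not show pairing; with the replicate block 7404 genes and 7 feedback genes were called, ETV5 in addition (0.26, adjusted p = 0.0279). Without a low-count filter the SPRY2 difference between the naive groups was not called (0.0875). CPM on raw totals moved no feedback gene's naive mean by more than its SD. DUSP6, with 152 to 475 counts per library, had the fewest counts of the 10 in total.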
